A study of Mus musculus with 4 samples.

Results

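The circadian clock genes Per1, Per2, Per3, Cry1, Cry2, Arntl, Clock, Nr1d1, Nr1d2 and Dbp were followed in RNA sequencing counts of mouse colonic epithelial cells. These 10 genes were taken by symbol from the 31227 Ensembl gene IDs of the deposited count table, where each matched 1 row, and all 10 had enough counts to be tested. Mice of the Smad4 KO group lacked Smad4, the shared partner of the TGF-β and BMP signal-carrying Smad proteins, in the epithelium (2 libraries, replicates 1 and 2). The comparison mice were wild type (WT, 2 libraries, replicates 1 and 3). Both groups were 8 to 10 weeks old. Both had 3.5% dextran sulfate sodium (DSS), which damages the lining of the colon, in their water for 5 days, and were killed on day 7 after a return to plain water. The labels name neither the promoter or Cre line behind the epithelial deletion nor the hour at which tissue was taken, and they do not say whether libraries came from separate mice. P-values therefore measure only how these libraries vary, part of which may be technical, and a difference in genotype cannot be told apart from a difference in the hour of collection between the groups.

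The mammalian clock is a transcriptional feedback loop that runs in nearly every cell, gut epithelium included. Clock and Arntl (also called Bmal1) encode the pair of activators that bind E-box sequences and switch on the Per, Cry, Nr1d and Dbp genes. The Per and Cry proteins return to the nucleus and repress that pair, while the nuclear receptors Nr1d1 and Nr1d2 (REV-ERBα and REV-ERBβ) repress Arntl through ROR elements. Dbp is a transcription factor that acts on D-box sequences of output genes. In tissues with a running clock the transcripts of Dbp and Nr1d1 swing widely over the day, roughly opposite to Arntl, so their level depends on the hour of collection. In the gut these rhythms also follow feeding.

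In Smad4 KO epithelium 5 of the 10 clock genes fell, 1 rose and 4 did not pass the test. Nr1d1 fell most, followed by Dbp, Per3, Per2 and Nr1d2. Cry1 was the gene that rose, and Per1, Cry2, Arntl and Clock did not pass. Passing means an adjusted p under 0.05 in edgeR's quasi-likelihood test over all 15838 tested genes, of which 15.2% passed, 8.83% as risen and 6.40% as fallen. The groups did not overlap in 8 of the 10 clock genes, 2 with Smad4 KO above WT and 6 below, against 59.4% of all tested genes (31.0% above and 28.4% below). The median log2 fold change was -0.63 over the 10 genes and 0.01 over all tested genes. Without regard to direction the medians were 0.65 and 0.27.

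The sequences around the transcription start show where elements of the loop sit in these genes. RefSeq windows of 300 bases (250 before and 50 after the start, GRCm38.p6) matched 9 of the 10 genes with 13 windows. The gene without a window was Per2, which fell. They were searched on both strands for the E-box CACGTG, the D-box TTATGTAA and the ROR element core TAGGTCA. An E-box lay in 7.15%, a D-box in 0.938% and a ROR core in 2.61% of all 32851 such windows of the genome. A match is a description of letters and not evidence of binding, and no match says only that these letters are not in the window. Capitals mark matches in the 5 windows below, which show the clock gene that fell most, a Per gene that fell beside one that did not, the gene that rose and the activator whose levels overlapped between the genotypes.

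Nr1d1, chr11:98775328-98775627, minus strand: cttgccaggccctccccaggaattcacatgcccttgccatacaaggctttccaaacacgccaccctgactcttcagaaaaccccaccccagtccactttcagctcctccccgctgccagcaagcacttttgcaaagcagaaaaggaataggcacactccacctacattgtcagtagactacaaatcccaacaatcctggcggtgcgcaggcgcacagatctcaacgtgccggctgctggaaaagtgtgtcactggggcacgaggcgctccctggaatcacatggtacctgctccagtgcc
Per3, chr4:151044616-151044915, minus strand: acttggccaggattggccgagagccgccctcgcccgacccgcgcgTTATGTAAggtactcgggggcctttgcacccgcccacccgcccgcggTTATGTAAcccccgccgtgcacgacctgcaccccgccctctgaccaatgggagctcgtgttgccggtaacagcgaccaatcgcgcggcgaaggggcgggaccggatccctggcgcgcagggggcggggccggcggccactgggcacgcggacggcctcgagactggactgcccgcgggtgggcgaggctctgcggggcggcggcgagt
Per1, upstream start, chr11:69098699-69098998, plus strand: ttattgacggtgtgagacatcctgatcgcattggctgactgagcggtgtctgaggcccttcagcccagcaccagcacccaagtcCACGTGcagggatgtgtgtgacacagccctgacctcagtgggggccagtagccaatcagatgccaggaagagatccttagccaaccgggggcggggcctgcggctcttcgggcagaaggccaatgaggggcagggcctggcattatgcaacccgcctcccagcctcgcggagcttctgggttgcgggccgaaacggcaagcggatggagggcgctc
Cry1, chr10:85185005-85185304, minus strand: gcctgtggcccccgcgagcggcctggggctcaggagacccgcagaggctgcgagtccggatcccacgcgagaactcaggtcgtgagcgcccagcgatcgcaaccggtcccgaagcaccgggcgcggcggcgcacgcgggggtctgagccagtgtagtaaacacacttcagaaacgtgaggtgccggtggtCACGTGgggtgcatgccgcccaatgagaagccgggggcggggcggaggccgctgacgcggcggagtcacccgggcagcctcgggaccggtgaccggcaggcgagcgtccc
Arntl, downstream start, chr7:113207261-113207560, plus strand: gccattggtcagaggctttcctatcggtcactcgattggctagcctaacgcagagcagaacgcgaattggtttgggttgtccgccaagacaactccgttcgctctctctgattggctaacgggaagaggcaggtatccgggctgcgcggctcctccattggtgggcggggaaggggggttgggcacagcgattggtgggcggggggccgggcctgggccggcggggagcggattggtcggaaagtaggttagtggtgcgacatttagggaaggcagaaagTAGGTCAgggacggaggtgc

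Per3, which fell, carried 2 D-boxes, beginning 205 and 158 bases before the start; only 7 of the 32851 windows held 2 or more. Per1 and Cry1, both of which lay higher in the Smad4 KO libraries, each carried an E-box, beginning 166 and 60 bases before the start. For Per1 this was the window at the upstream start, and the window at its downstream start held no match. The window at the downstream start of Arntl carried a ROR core beginning at base 31 after the start. The window at its upstream start held no match. The windows of Nr1d1, Nr1d2, Dbp, Cry2 and Clock held no match. Among the genes that fell and had a window, only Per3 thus held any of these letters.

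Levels below are CPM, each count scaled to its library's TMM-corrected total. The libraries held 61260099 and 67927291 counts in Smad4 KO and 56018009 and 42577920 in WT, so that 1 count stood for 0.0150 to 0.0229 CPM. Smad4 had 51.5 and 41.1 CPM in Smad4 KO libraries, against 152 and 180 CPM in WT libraries, in the direction of the labels (log2 fold change -1.84 with SE 0.143 and an edgeR adjusted p of 0.00163). Epithelial markers were summed at 16612 and 17155 CPM in Smad4 KO and 16584 and 16203 CPM in WT. Of the 9 markers 5 rose and 1 fell. This count and the marker counts below stand beside 8.83% risen and 6.40% fallen among all tested genes. The keratin of mature colonocytes Krt20 rose 1.65-fold and the intestinal factor Cdx2 1.50-fold, while Krt19 fell 1.17-fold (edgeR adjusted p = 0.00150, 0.00558 and 0.0308). Markers of neutrophils were higher in Smad4 KO, with 5 of 7 tested risen and summed levels of 427 to 440 CPM in Smad4 KO and 103 to 130 CPM in WT. Ly6g made up most of those sums, and the 9 other listed markers summed to 108 to 110 CPM in Smad4 KO and 9.75 to 13.6 CPM in WT. The granule genes Mpo, Elane and Camp had no count in any library. Of 10 macrophage markers 3 rose, with sums of 183 to 189 CPM in Smad4 KO and 179 to 196 CPM in WT. Those sums were mostly Cd14, which did not pass and lay lower in Smad4 KO (134 to 136 CPM) than in WT (159 to 181 CPM), and the 9 other markers summed to 49.0 to 52.5 CPM in Smad4 KO and 15.1 to 20.0 CPM in WT. Of 7 tested fibroblast markers 2 rose, with sums of 63.9 to 68.5 CPM in Smad4 KO and 38.0 to 38.1 CPM in WT. Most of that difference was Fbln1, with 28.1 and 34.7 CPM in Smad4 KO and 9.73 and 10.3 CPM in WT. The 7 other listed fibroblast markers summed to 33.8 to 35.8 CPM in Smad4 KO and 27.7 to 28.4 CPM in WT. T cell markers summed to 14.1 to 14.3 CPM in Smad4 KO and 6.51 to 7.62 CPM in WT, with 1 of 8 risen. The nuclear RNA Malat1 was lower in Smad4 KO (290 ± 29.5 CPM) than in WT (696 ± 139 CPM; SD, n = 2 each). The part that these cells or RNA quality play in the clock gene values was not tested. In bulk RNA, fewer cells of a type and less RNA per cell cannot be told apart.

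**Figure D1:**
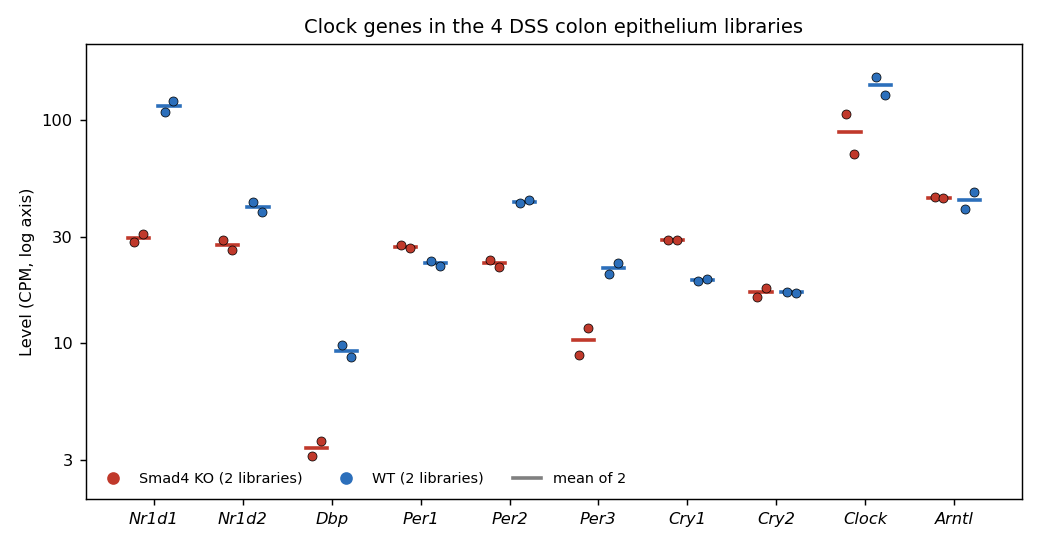
Level of each clock gene (CPM, log axis) in the 2 Smad4 KO libraries (red, left) and the 2 WT libraries (blue, right); points are libraries and bars are the mean of 2. Nr1d1, Nr1d2, Dbp, Per2, Per3 and Clock lie lower in both Smad4 KO libraries, Cry1 and Per1 lie higher, and the groups overlap for Cry2 and Arntl. Clock and Per1 did not pass the test.

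Nr1d1 and Nr1d2 encode the REV-ERB receptors, which repress transcription when bound to heme. Nr1d1 (ENSMUSG00000020889; chromosome 11, 98767932 to 98775333, minus strand, GENCODE M21 on GRCm38) had 28.6 and 31.0 CPM in Smad4 KO libraries, against 109 and 123 CPM in WT libraries. The lower of the WT libraries was thus far above the higher of the Smad4 KO libraries, and each pair lay close together. Nr1d1 fell 3.88-fold (log2 fold change -1.96 with SE 0.0955 and an edgeR adjusted p of 0.000450), rank 105 of 15838 tested genes by p. Nr1d2 (ENSMUSG00000021775, chromosome 14) had 29.2 and 26.2 CPM in Smad4 KO, against 43.1 and 38.7 CPM in WT, again without overlap. It fell 1.48-fold (log2 fold change -0.56 with SE 0.111 and an edgeR adjusted p of 0.0287). That call was lost without WT replicate 1 (edgeR adjusted p = 0.0575) and without either Smad4 KO library (edgeR adjusted p = 0.0973 and 0.171). Within a library the ratio of Nr1d1 to Nr1d2 was 0.979 and 1.18 in Smad4 KO and 2.52 and 3.17 in WT, so the paralogues did not change by the same factor.

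The last exons of Nr1d1 run into those of the thyroid hormone receptor gene Thra on the opposite strand. They share 263 bases, 8.55% of the exonic bases of Nr1d1, and whether the counting used strand was not given in the sources used here. Thra had 41.7 and 44.7 CPM in Smad4 KO and 55.0 and 50.0 CPM in WT, and it did not pass (log2 fold change -0.28 with an edgeR adjusted p of 0.111). The ratio of Nr1d1 to Thra was 0.686 and 0.694 in Smad4 KO libraries, against 1.98 and 2.45 in WT libraries. Nr1d1 thus lay below Thra in both Smad4 KO libraries and above it in both WT libraries.

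Dbp, the D-box activator often used as a readout of clock output, was the least abundant of the 10 genes in CPM. It had 3.13 and 3.64 CPM in Smad4 KO libraries, from 188 and 243 counts, against 9.82 and 8.65 CPM in WT libraries, from 557 and 377 counts. The groups did not overlap. Dbp (ENSMUSG00000059824; chromosome 7, 45705088 to 45710203, plus strand) fell 2.73-fold (log2 fold change -1.45 with SE 0.185 and an edgeR adjusted p of 0.00752), a call that was just lost without Smad4 KO replicate 1 (log2 fold change -1.34 with an edgeR adjusted p of 0.0523). Its exons share 539 bases, 18.0% of their length, with the sphingosine kinase gene Sphk2 on the opposite strand. Sphk2 had 70.5 and 69.8 CPM in Smad4 KO and 103 and 99.2 CPM in WT, and it fell by less (log2 fold change -0.53 with SE 0.0661 and an edgeR adjusted p of 0.00719), a call lost without either Smad4 KO library (0.0723 and 0.0777). The ratio of Dbp to Sphk2 was 0.0444 and 0.0522 in Smad4 KO and 0.0956 and 0.0872 in WT. Sphk2 was far more abundant in every library, and the share of Dbp counts that came from Sphk2 reads is uncertain.

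The 3 Per genes, whose proteins form the repressor with Cry, did not move together. Per2 (ENSMUSG00000055866, chromosome 1) had 23.6 and 22.1 CPM in Smad4 KO libraries, against 42.5 and 43.7 CPM in WT libraries. It fell 1.89-fold (log2 fold change -0.92 with SE 0.0951 and an edgeR adjusted p of 0.00392) and kept its call in each fit that left out a library. Per3 (ENSMUSG00000028957, chromosome 4), the Per gene least needed for rhythm in mice, had 8.85 and 11.7 CPM in Smad4 KO, against 20.5 and 22.8 CPM in WT. It fell as well (log2 fold change -1.07 with SE 0.171 and an edgeR adjusted p of 0.0151), with the call lost without Smad4 KO replicate 1 (edgeR adjusted p = 0.0578). For neither gene did the libraries overlap between the genotypes. Camta1, a transcription factor gene on the same strand that Per3 overlaps without sharing exon bases, averaged 11.2 ± 1.04 CPM in Smad4 KO and 11.8 ± 0.558 CPM in WT (SD, n = 2 each) and did not pass (edgeR adjusted p = 0.757).

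Per1, which hormones and cAMP signals can induce, lay on the other side. Per1 (ENSMUSG00000020893, chromosome 11) had 27.7 and 26.6 CPM in Smad4 KO libraries, against 23.5 and 22.2 CPM in WT libraries. Both Smad4 KO libraries were higher, but the gene did not pass (log2 fold change 0.25, 95% interval -0.00028 to 0.50, edgeR adjusted p = 0.168). Within a library Per1 was 1.17 and 1.21 times the CPM of Per2 in Smad4 KO, against 0.551 and 0.507 times in WT. Per3 relative to Per2 overlapped, at 0.375 and 0.531 in Smad4 KO and 0.481 and 0.521 in WT.

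The cryptochromes Cry1 and Cry2, the partners of the Per proteins, also differed from each other. Cry1 (ENSMUSG00000020038, chromosome 10) had 29.0 CPM in each Smad4 KO library, against 18.9 and 19.5 CPM in WT libraries. It rose 1.51-fold (log2 fold change 0.59 with SE 0.0962 and an edgeR adjusted p of 0.0159). The log2 fold change was 0.60 without Smad4 KO replicate 1 and 0.59 without replicate 2, but each fit lost the call (edgeR adjusted p = 0.0929 and 0.113). Cry2 (ENSMUSG00000068742, chromosome 2) had 16.1 and 17.7 CPM in Smad4 KO and 17.0 and 16.8 CPM in WT, with both WT libraries inside the range of the Smad4 KO libraries. Its log2 fold change had a 95% interval of -0.29 to 0.28 (edgeR adjusted p = 0.984). A short stretch of Cry2 exons (295 bases, 4.67%) is shared with an antisense transcript that is not analysed here. The ratio of Cry1 to Cry2 was 1.80 and 1.64 in Smad4 KO and 1.11 and 1.16 in WT.

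Of the activators, Arntl (ENSMUSG00000055116, chromosome 7) had 45.2 and 44.8 CPM in Smad4 KO libraries, against 40.2 and 47.6 CPM in WT libraries. The Smad4 KO libraries lay between the WT libraries, and the log2 fold change was 0.04 (95% interval -0.24 to 0.31, edgeR adjusted p = 0.865); the estimate was -0.016 when library totals alone set the scale and -0.093 without WT replicate 1. Clock (ENSMUSG00000029238, chromosome 5), the kin of Npas2 and the most abundant of the 10 genes in CPM, had 106 and 70.6 CPM in Smad4 KO, against 157 and 130 CPM in WT. The groups did not overlap, yet the Smad4 KO libraries differed more from each other (0.59 on the log2 scale) than for any other of the 10 genes. Clock did not pass (log2 fold change -0.70 with SE 0.209 and an edgeR adjusted p of 0.0888). It passed with no filter on low counts (edgeR adjusted p = 0.0434), by DESeq2 (adjusted p = 0.00336) and without Smad4 KO replicate 1 (log2 fold change -1.02 with an edgeR adjusted p of 0.0288). Without Smad4 KO replicate 2 the log2 fold change was -0.43 (edgeR adjusted p = 0.212), so its size rests on which of the Smad4 KO libraries is used.

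**Figure D2:**
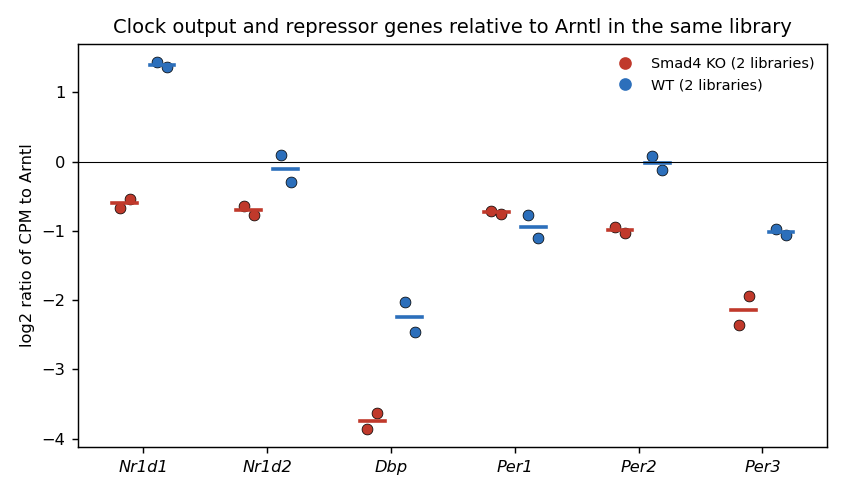
CPM of 6 clock genes divided by that of Arntl in the same library, on the log2 scale, for the 2 Smad4 KO libraries (red, left) and the 2 WT libraries (blue, right); bars are means of 2. Every gene shown except Per1 lies lower in both Smad4 KO libraries, most of all Nr1d1 and Dbp.

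Setting each gene against Arntl in the same library removes the scaling between libraries. Nr1d1 was 0.632 and 0.691 times the CPM of Arntl in Smad4 KO, against 2.70 and 2.57 times in WT. The order of the pair was therefore turned round between the genotypes, as the plot of ratios to Arntl shows. Dbp was 0.0692 and 0.0812 times Arntl in Smad4 KO, against 0.245 and 0.182 times in WT. Per2 was 0.521 and 0.492 times Arntl in Smad4 KO, against 1.06 and 0.919 times in WT. These ratios are a description and were not tested, and since the labels give no hour of collection they cannot be read as a phase.

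Libraries of a genotype resembled each other in their clock genes. Over the 10 genes the mean absolute log2 difference was 0.18 between the Smad4 KO libraries and 0.14 between the WT libraries. Between a Smad4 KO and a WT library it was 0.76 to 0.79. Over all 10625 tested genes with a mean of at least 5 CPM the same measure was 0.15 within Smad4 KO, 0.20 within WT and 0.36 to 0.39 between genotypes. Within each genotype the clock genes thus varied about as much as other genes.

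To set different genes side by side, levels were divided by the kilobases of all annotated exons of a gene, merged. That length can exceed the length of the transcripts present, so the order between genes is approximate. Nr1d1 led in both genotypes, with 9.68 ± 0.556 CPM per kb in Smad4 KO and 37.6 ± 3.20 CPM per kb in WT (SD, n = 2 each). In Smad4 KO it was followed by Cry1 (8.68), Clock (6.45), Arntl (5.99), Nr1d2 (5.12), Per1 (4.82), Per2 (3.90), Cry2 (2.67), Dbp (1.13) and Per3 (1.07 CPM per kb). Neighbours whose libraries overlapped in that order were Clock and Arntl, Nr1d2 and Per1, and Dbp and Per3. In WT the order was Nr1d1, Clock (10.5), Nr1d2 (7.56), Per2 (7.37), Arntl (5.83), Cry1 (5.75), Per1 (4.05), Dbp (3.09), Cry2 (2.68) and Per3 (2.25 CPM per kb), with overlap between Nr1d2 and Per2 and between Arntl and Cry1. Cry1 stood at place 2 in Smad4 KO and place 6 in WT, while Per2 stood at place 7 in Smad4 KO and place 4 in WT.

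**Figure D3:**
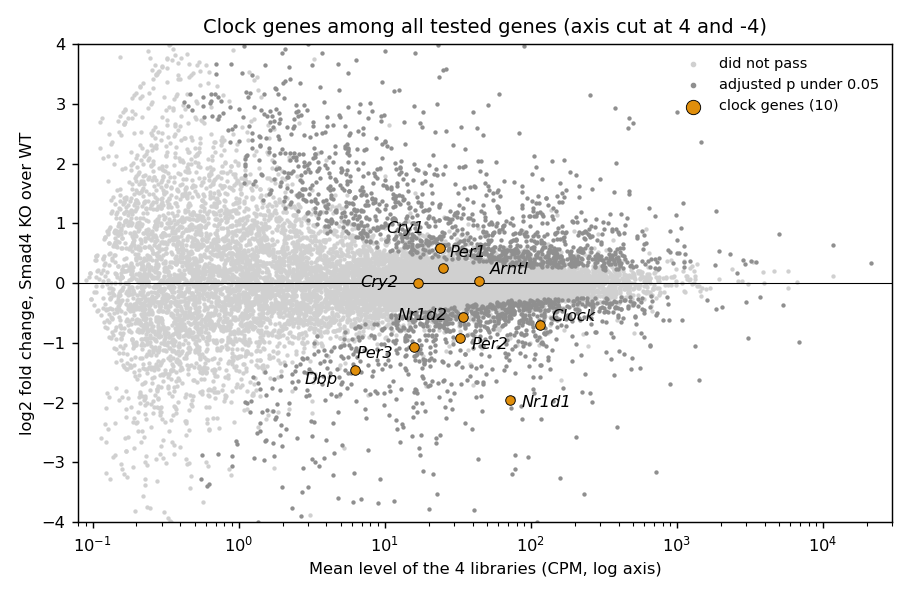
Log2 fold change of Smad4 KO over WT against the mean level of the 4 libraries (CPM, log axis) for all tested genes, with genes past an adjusted p of 0.05 in dark grey and the 10 clock genes in orange; genes beyond the ends of the vertical axis are not drawn. Nr1d1, at -1.96, lies lowest of the 10, and Arntl (0.04) and Cry2 (-0.0046) lie beside 0.

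Among tested protein-coding genes with a mean of at least 5 CPM (10477 candidates), the pattern most like that of Nr1d1 over the 4 libraries was that of Gmpr, with Cd74 and Lrrk2 next. Likeness was the Euclidean distance between log2(CPM + 1) values centred on each gene's mean, which was 0.0939, 0.114 and 0.120. Gmpr, a GMP reductase, had 2.43 and 2.74 CPM in Smad4 KO and 12.2 and 12.6 CPM in WT. With 2 libraries a group, such likeness says little more than that a gene fell by a similar factor.

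The wider clock network was described with 18 further genes, of which 16 were tested, 3 rose, 3 fell and 10 did not pass. Their median log2 fold change was -0.03, against 0.01 for all tested genes, of which 8.83% rose and 6.40% fell. Tef, an activator of the same family as Dbp, had 12.9 and 14.9 CPM in Smad4 KO, against 22.0 and 22.7 CPM in WT, and fell 1.61-fold (log2 fold change -0.69 with SE 0.122 and an edgeR adjusted p of 0.0207). Nfil3, a repressor that competes for D-boxes and is itself a REV-ERB target, had 16.5 and 16.2 CPM in Smad4 KO, against 10.5 and 9.43 CPM in WT, and rose 1.63-fold (log2 fold change 0.71 with SE 0.124 and an edgeR adjusted p of 0.0203). The groups overlapped for neither gene, and both calls were lost when WT replicate 3 or either Smad4 KO library was left out (highest edgeR adjusted p 0.121 for Tef and 0.119 for Nfil3). Hlf, another activator of the Dbp family, was not tested, with 0.216 and 0 CPM in Smad4 KO and 0 CPM in both WT libraries.

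Among the other regulators, Bhlhe40, which represses E-box transcription, rose 1.28-fold, with 220 and 226 CPM in Smad4 KO and 169 and 180 CPM in WT (edgeR adjusted p = 0.0228). Csnk1e, a kinase that marks Per proteins for breakdown, rose 1.50-fold, with 18.2 and 18.8 CPM in Smad4 KO and 11.6 and 13.1 CPM in WT (edgeR adjusted p = 0.0324). Fbxw11, part of the ubiquitin ligase that degrades Per proteins, fell 1.22-fold, with 88.0 and 89.7 CPM in Smad4 KO and 107 and 110 CPM in WT (edgeR adjusted p = 0.0438). Timeless, best known in mammals for replication fork protection, was just under the threshold as fallen (edgeR adjusted p = 0.0498; 0.0507 with DESeq2 size factors). Bhlhe40, Csnk1e, Fbxw11 and Timeless each lost their calls when either Smad4 KO library was left out, the highest edgeR adjusted p being 0.173, 0.180, 0.265 and 0.236; leaving out WT replicate 1 also ended that of Csnk1e (0.0778) and leaving out WT replicate 3 those of Fbxw11 (0.0795) and Timeless (0.117). The activator paralogues did not pass. Npas2 had 35.7 and 43.7 CPM in Smad4 KO and 39.4 and 44.0 CPM in WT (edgeR adjusted p = 0.778), and Arntl2 had 4.06 and 4.83 CPM in Smad4 KO and 3.65 and 3.56 CPM in WT (edgeR adjusted p = 0.411).

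**Figure D4:**
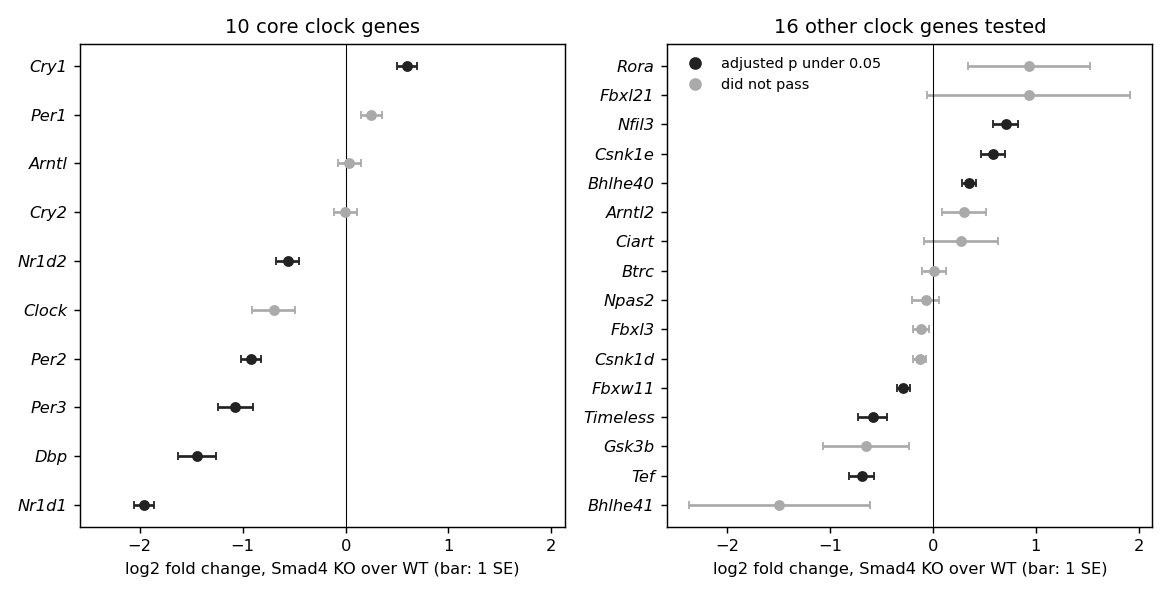
Log2 fold change of Smad4 KO over WT for the 10 core clock genes (left panel) and the 16 other tested clock genes (right panel); bars are 1 SE, and black points passed an adjusted p of 0.05. The core genes reach from Nr1d1 at -1.96 to Cry1 at 0.59, and among the others Tef fell and Nfil3 rose.

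Genes known as rhythmic outputs in many tissues moved both ways. Among 10 tested outputs 4 passed as risen and 1 as fallen, with a median log2 fold change of 0.15. That compares with 8.83% risen and 6.40% fallen among all tested genes. Usp2, a deubiquitinase whose transcript follows the clock in nearly every tissue, had 5.41 and 5.85 CPM in Smad4 KO, against 11.6 and 12.5 CPM in WT, and fell 2.15-fold (log2 fold change -1.10 with SE 0.145 and an edgeR adjusted p of 0.00821; 0.0610 without Smad4 KO replicate 1). Nampt, the rate-limiting enzyme of NAD salvage, rose 1.46-fold, with 127 and 122 CPM in Smad4 KO and 85.5 and 84.2 CPM in WT (edgeR adjusted p = 0.00596). Coq10b, Alas1, which starts heme synthesis, and the cytochrome P450 reductase Por rose 1.42-fold, 1.33-fold and 1.25-fold (edgeR adjusted p = 0.0228, 0.0218 and 0.0247). These 4 calls were lost when either Smad4 KO library was left out (highest edgeR adjusted p 0.0597 for Nampt, 0.154 for Coq10b, 0.135 for Alas1 and 0.183 for Por). Wee1, a cell cycle kinase under E-box control, had 18.7 and 19.3 CPM in Smad4 KO and 22.5 and 21.6 CPM in WT and did not pass (edgeR adjusted p = 0.238).

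Gut transporters with a known daily rhythm numbered 5 among the tested genes, of which 2 fell and 1 rose (median log2 fold change -0.26). For all tested genes the shares were 6.40% fallen and 8.83% risen. The peptide transporter Slc15a1 fell 2.08-fold, with 50.0 and 52.3 CPM in Smad4 KO and 105 and 108 CPM in WT (edgeR adjusted p = 0.000986). The glucose transporter Slc5a1 fell 1.47-fold, with 141 and 147 CPM in Smad4 KO and 210 and 214 CPM in WT (edgeR adjusted p = 0.00454; 0.0502 without Smad4 KO replicate 1). The sodium-proton exchanger Slc9a3 rose 1.84-fold, with 280 and 333 CPM in Smad4 KO and 172 and 161 CPM in WT (edgeR adjusted p = 0.00533). The efflux pump Abcb1a had 452 and 486 CPM in Smad4 KO and 433 and 456 CPM in WT and did not pass (edgeR adjusted p = 0.485).

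Daily signals that reach peripheral clocks from outside, such as glucocorticoids and body temperature, leave their own transcripts, and these were set beside the clock genes. Of 10 glucocorticoid-induced genes 3 rose, 2 fell and 5 did not pass (median log2 fold change 0.48). The shares among all tested genes were 8.83% risen and 6.40% fallen. Fkbp5, which binds the glucocorticoid receptor complex, had 205 and 197 CPM in Smad4 KO, against 83.9 and 83.8 CPM in WT, and rose 2.40-fold (log2 fold change 1.26 with SE 0.0633 and an edgeR adjusted p of 0.000488). Zbtb16, a zinc finger repressor, had 0.798 and 1.39 CPM in Smad4 KO, against 6.67 and 9.24 CPM in WT, and fell 7.22-fold (edgeR adjusted p = 0.00697). Klf9 fell 1.56-fold, while Sgk1 rose 1.45-fold and Dusp1 1.77-fold (edgeR adjusted p = 0.0118, 0.0188 and 0.0117). Each of these 3 lost its call without Smad4 KO replicate 1, and Sgk1 and Dusp1 also without replicate 2 (edgeR adjusted p up to 0.0914, 0.120 and 0.0795). Tsc22d3, listed also among the rhythmic outputs, had 25.0 and 23.5 CPM in Smad4 KO and 28.3 and 32.9 CPM in WT and did not pass (edgeR adjusted p = 0.128). The other genes of this list that did not pass all lay higher in both Smad4 KO libraries (log2 fold change 0.15 to 0.91, edgeR adjusted p 0.0551 to 0.296).

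Of 9 immediate early and cAMP-induced genes, 3 rose and 6 did not pass (median log2 fold change 0.44). By the same test 8.83% of all tested genes rose and 6.40% fell. Egr1 had 67.7 and 69.7 CPM in Smad4 KO and 35.6 and 43.2 CPM in WT (1.74-fold, edgeR adjusted p = 0.0103), Atf3 rose 1.76-fold and Fos 1.36-fold (edgeR adjusted p = 0.00721 and 0.0197). All 3 lost their calls without Smad4 KO replicate 1, and Egr1 and Fos also without replicate 2 (edgeR adjusted p up to 0.0660, 0.0528 and 0.125). Crem, which encodes a cAMP-induced repressor, had 9.05 and 6.64 CPM in Smad4 KO and 4.30 and 4.08 CPM in WT and just missed the threshold (edgeR adjusted p = 0.0505). Of 8 temperature-responsive genes, 4 rose, all of them heat shock genes, and 4 did not pass (median log2 fold change 0.33). The heat shock genes Hsp90aa1 (log2 fold change -0.13) and Dnajb1 (0.23) were among those that did not pass (edgeR adjusted p = 0.471 and 0.255). Hspa8 rose 1.43-fold (edgeR adjusted p = 0.00261), Hspa1b 1.67-fold, Hspa1a 1.63-fold and Hsph1 1.35-fold (edgeR adjusted p = 0.0164, 0.0254 and 0.0444). Hspa1b, Hspa1a and Hsph1 lost their calls when either Smad4 KO library was left out (highest edgeR adjusted p 0.0934, 0.144 and 0.246), Hspa1a also without WT replicate 1 (0.0561) and Hsph1 without either WT library (highest 0.101) and when library totals alone set the scale (0.0649). The cold-induced RNA-binding genes Cirbp and Rbm3, which follow body temperature over the day, did not pass. Cirbp had 26.8 and 21.6 CPM in Smad4 KO and 27.7 and 26.3 CPM in WT (edgeR adjusted p = 0.497), and Rbm3 had 130 and 123 CPM in Smad4 KO and 120 and 110 CPM in WT (edgeR adjusted p = 0.299). These values move beside the clock genes in the same libraries, and their part in the clock gene differences was not tested.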

How the data were processed

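Per the labels' protocols, total RNA was extracted with TRIZOL and libraries were made from random-primed cDNA; a strand setting was not given in the sources used here. The authors deposited raw whole-number counts of 31227 Ensembl gene IDs in 4 libraries. FastQC 0.19.7, HISAT2 2.1.0, SAMtools 1.9 and StringTie 1.3.3b are named per the submitters' processing notes, with the build GRCm38 (mm10). The counting tool and annotation release were not given in the sources used here. A deposited count may thus be a tally of reads or a number derived from coverage. Symbols, positions and merged exon lengths came from GENCODE M21, which named 31207 IDs.

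Of 19618 genes with any count, filterByExpr kept 15838. After TMM scaling, edgeR 4.0.16 under R 4.3.3 gave quasi-likelihood F tests, with genotype as the only term and Benjamini-Hochberg adjustment over all tested genes (threshold 0.05). The SE is the log2 fold change divided by the root of its F statistic, and 95% intervals use the fit's degrees of freedom. Alternatives were other normalizations (DESeq2 size factors, upper quartile, library totals), no low-count filter, at least 1 CPM in at least 2 libraries, limma-voom (limma 3.58.1), DESeq2 1.42.0 and leaving out each library. The rule for named genes took the 10 clock genes, Smad4, genes overlapping a clock gene and, from each comparison list, members that passed and those with the smallest p. Arntl2, Npas2, Wee1, Tsc22d3, Cirbp and Rbm3 were named for their roles. The clock genes, lists and motif spellings were chosen with earlier results of these data known, and 1 gene of the list of other clock genes is not reported here. Libraries of a genotype differed, and none was a copy of another.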

Additional observations from a re-analysis of the deposited data

How the results depend on the processing

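Over 11 alternatives, Nr1d1 and Per2 passed as fallen in every fit (log2 fold change -2.05 to -1.87 and -0.97 to -0.87). All 6 clock gene calls held in the 7 alternatives that kept every library. Clock, which is not among these 6, passed without Smad4 KO replicate 1 and is counted as fallen there. Leaving out a library gave 975 to 2573 called genes in all, against 2412, with 0 to 1 clock genes risen and 3 to 5 fallen. The lowest counts came without a Smad4 KO library: 978 genes without replicate 1 and 975 without replicate 2, where the lone library is assumed to vary like the WT pair. Genes that did not pass changed sign near 0: Arntl (-0.016 with library totals, -0.093 to 0.17 without a library), Cry2 (-0.074 to 0.066 without a library) and Npas2 (-0.22 to 0.073). DESeq2 called more genes in both directions, 1922 risen and 1524 fallen, against 1398 and 1014. The cause of these shifts was not tested. No paired analysis was possible because the 2 groups share only replicate number 1. With 2 libraries a group, small changes are not detectable, and a p that misses the threshold does not show equal levels.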
